A study of Daphnia magna with 9 samples.

Results

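The genes described here are those of Daphnia magna whose deposited name places them at the synapse, in neuropeptide signalling or among the ion channels of excitable cells. A gene was taken as a member when its name held synapt, neurexin, neuroligin, neuropeptide, acetylcholine receptor, glutamate receptor, gamma-aminobutyric, voltage-gated, potassium channel, dopamine, serotonin, 5-hydroxytryptamine or octopamine, and did not hold synaptonemal, solute carrier or transporter. Of 42462 gene IDs, 184 met this rule, which uses names and no measured value. RNA was taken from whole bodies of females on day 12 after birth, when they released the second clutch, with the eggs removed and 5 daphnids pooled in each library. Starved DNMT3.1-/- mutants, starved wild types of the NIES strain and nutrient-rich DNMT3.1-/- mutants gave 3 libraries each, and the starved animals received 8-fold less Chlorella per day than the nutrient-rich ones. Nutrient-rich wild types were not among these libraries, so whether a change with food is particular to the mutant cannot be judged. Both mutant groups belong to a single line, raised from 1 founder in which CRISPR/Cas9 left frameshifts in both alleles of DNMT3.1, so the mutation and any other property of that line cannot be told apart.

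A nerve cell releases its transmitter when an action potential opens calcium channels at the terminal and synaptotagmins, the calcium sensors of the vesicle, set off fusion by the SNARE proteins. Across the cleft, neurexins and neuroligins hold the membranes together, and the transmitter opens ion channel receptors (nicotinic, ionotropic glutamate and GABA type A) or acts through G proteins (muscarinic, metabotropic glutamate, GABA type B, biogenic amine and neuropeptide receptors). In arthropods acetylcholine is the main excitatory transmitter of the central nervous system and glutamate that of the nerve-muscle junction, while octopamine takes the place of noradrenaline. Potassium channels bring the membrane back to rest after a spike and set how readily the next spike follows.

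The members were mostly weakly expressed. Of the 184, 142 passed the filter on low counts and were tested, 36 had reads but too few to be tested, and 6 had no read in any library. The median tested member had a mean of 1.79 RPKM (reads divided by transcript length and sequencing depth) over the 9 libraries, against 6.42 RPKM for the median of all 17748 tested genes, and 48 of the 142 lay under 1 RPKM. All members together took 0.157% to 0.300% of the counted reads of a library. The most abundant member by far was an acetylcholine receptor subunit alpha-like 1 (Dapma7bEVm023877t1), a nicotinic subunit, with a mean of 280 RPKM. It was followed by Synaptic functional regulator FMR1 (Dapma7bEVm010708t1), an RNA-binding protein that regulates translation at synapses and elsewhere, with 59.4 RPKM, and by Synaptosomal-associated protein 29 (Dapma7bEVm004890t1), a SNARE of general membrane fusion, with 30.9 RPKM. Synaptosomal-associated protein 25 (Dapma7bEVm010540t1), the SNARE of the nerve terminal, reached 27.4 RPKM. Neurexin-4 (Dapma7bEVm018496t1), which in Drosophila belongs to septate junctions, had 23.5 RPKM, with 117, 117 and 120 CPM in starved mutants, 116, 111 and 119 CPM in starved wild types and 107, 104 and 105 CPM in nutrient-rich mutants. Several names thus cover proteins that are not particular to nerve cells. In RNA of whole bodies, fewer cells of a type and less RNA per cell cannot be told apart.

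The libraries held 9270993 to 11806614 counted reads. Nutrient-rich mutant replicate 2 stood apart from the rest: its 10 most abundant features took 19.5% of the counted reads, where those of the other 8 libraries took 8.6% to 12.9%, and its log2 levels correlated with those of the other nutrient-rich libraries at r = 0.893 and 0.908, against 0.956 between these. Of the tested members, 86 (60.6%) were lowest in this library among the 3 nutrient-rich ones, as were 46.4% of all tested genes. The coefficient of variation among nutrient-rich libraries had a median of 40.4% over the members and 31.4% over all tested genes, and over the members it was 13.7% among starved mutants. Counts of called members below are therefore also given without that library, with the members whose calls changed. For the lists of other genes and of tissue markers such counts are not given. DNMT3.1 itself (Dapma7bEVm006722t1) was counted at 87.3, 39.9 and 61.5 CPM in starved mutants, 84.9, 111 and 79.0 CPM in starved wild types and 10.8, 4.39 and 9.66 CPM in nutrient-rich mutants, and the starved groups overlapped (log2 fold change -0.54, edgeR adjusted p = 0.464). A frameshift need not change the level of the RNA, so this value does not check the labels. CPM are read counts set to a common sequencing depth after scaling of the libraries by TMM.

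To ask what the mutation changed under starvation, starved mutants were compared with starved wild types. Few members differed: 2 were higher and 5 lower in the starved mutants of 142 tested (4.93%), where 7.25% of all tested genes were called (2.97% higher and 4.28% lower). A gene was called when edgeR gave an adjusted p under 0.05 and the fold change reached 1.5, and SE below is the standard error of a log2 fold change. DESeq2 called 3 higher and 5 lower (5.63%, against 11.4% of all tested genes). An unadjusted p under 0.05 was reached by 15 of the 142 members, against 19.7% of all tested genes. The libraries of the groups did not overlap for 47 of the 142 members, against 41.5% of all tested genes. The starved mutants lay wholly above for 18 of these members (20.2% of all tested genes). The median log2 fold change of the members was -0.07, against -0.00 over all tested genes. Scaling by library totals in place of TMM moved these medians to 0.03 and 0.10 and left 3 members higher and 1 lower, where 6.58% of all tested genes were called. The share of members called was thus below that of all genes in this comparison. The median tested member had a mean of 51.7 reads, against 125 for the median of all tested genes. The part of these lower counts in the share called was not tested.

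The first member higher in the starved mutants was a neurexin-1-like gene (Dapma7bEVm000787t1), the presynaptic adhesion protein that binds neuroligins. It had 79.6, 135 and 110 CPM in starved mutants, against 57.3, 54.1 and 56.6 CPM in starved wild types, and 49.4, 58.0 and 53.8 CPM in nutrient-rich mutants. Every starved mutant library lay above all 6 others, while the nutrient-rich mutants and the starved wild types overlapped. The log2 fold change was 0.95 (SE 0.18, edgeR adjusted p = 0.0162) over starved wild types, and 1.01 (0.18, edgeR adjusted p = 0.00428) over nutrient-rich mutants. In the deposited RPKM, a second measure of the same libraries, it reached 5.95, 11.6 and 8.75 in starved mutants, against 2.83, 2.80 and 2.74 in starved wild types and 1.40, 1.73 and 2.00 in nutrient-rich mutants. The difference was larger on that scale, with log2 fold changes of 1.56 and 2.25 (limma adjusted p = 0.0152 and 0.00106). The medians of all genes on that scale were 0.11 and 0.38. The ratio of reads to RPKM of this gene varied over the libraries with a coefficient of variation of 30.6%. The median was 5.41% over the tested members and 2.97% over all tested genes. It exceeded 20% in 24 tested members, and the cause was not tested.

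The second was named Glutamate receptor, metabotropic (Dapma7bEVm015293t1), a G protein-coupled receptor of glutamate. Its counts were 40, 51 and 45 reads in starved mutants, against 5, 11 and 4 reads in starved wild types, and 5, 15 and 7 reads in nutrient-rich mutants. These are 3.74, 3.91 and 3.87 CPM in starved mutants, above all 6 other libraries, which held 0.379 to 1.88 CPM. The log2 fold change was 2.52 (SE 0.53, edgeR adjusted p = 0.0226) over starved wild types and 1.91 (0.51, edgeR adjusted p = 0.0244) over nutrient-rich mutants. Yet its deposited RPKM was 0 in all 9 libraries, as for 71 of the 17748 tested genes, so the call holds for the deposited count only. No other tested member was listed at 0 RPKM throughout.

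**Figure D1:**
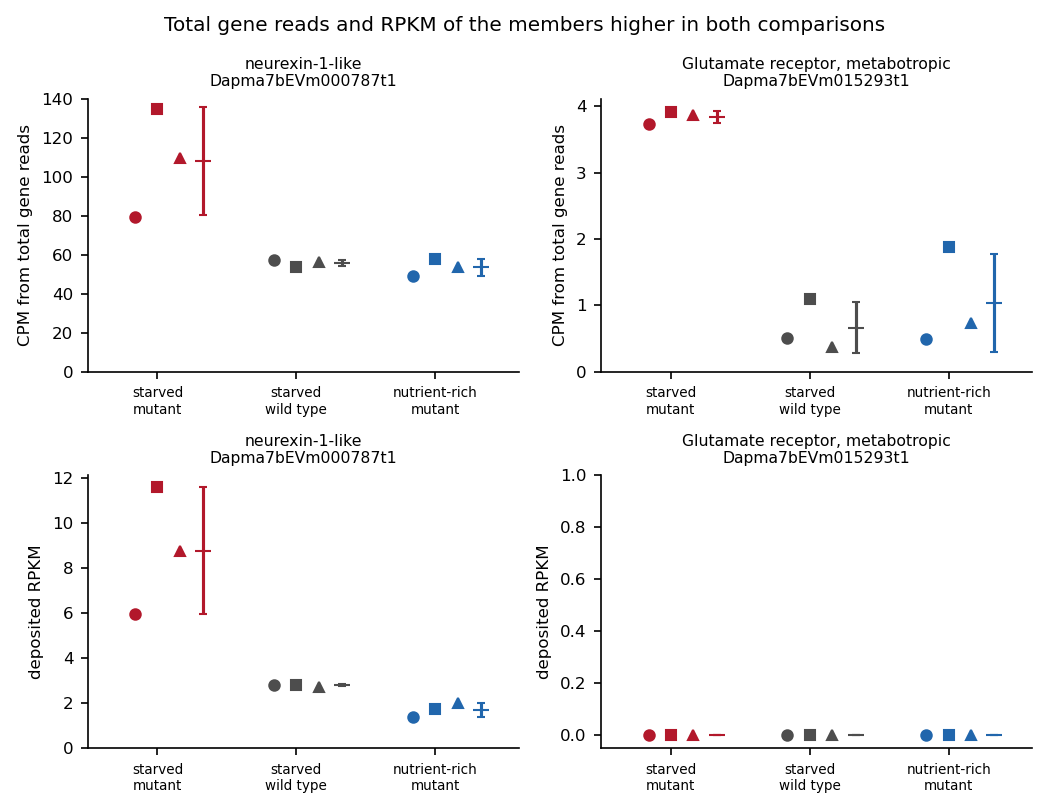
Levels of the neurexin-1-like gene and of Glutamate receptor, metabotropic in each library, as CPM from total gene reads (top) and as deposited RPKM (bottom), by group; circles, squares and triangles are replicates 1, 2 and 3 and bars the mean and SD (n = 3). The starved mutants lie above the other groups in CPM for both genes, whereas the RPKM of the metabotropic receptor is 0 in all 9 libraries.

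Of the 5 members lower in the starved mutants, 2 were a subunit of a receptor channel and a relative of the synaptotagmins. A nicotinic acetylcholine receptor subunit alpha5 (Dapma7bEVm005867t1) had 139, 67 and 86 reads in starved mutants, against 231, 228 and 249 reads in starved wild types (log2 fold change -1.46, SE 0.32, edgeR adjusted p = 0.0264). The nutrient-rich mutants, with 151, 80 and 150 reads, overlapped the starved mutants. Synaptotagmin-17 (Dapma7bEVm006993t1), which in mammals does not depend on calcium, had 6, 10 and 10 reads in starved mutants and 26, 35 and 32 in starved wild types (-2.04, SE 0.52, edgeR adjusted p = 0.048). It lay close to the threshold. In nutrient-rich mutants it spread from 3 to 17 reads and overlapped the starved mutants.

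The other 3 were G protein-coupled receptors. 5-hydroxytryptamine receptor 2B (Dapma7bEVm006448t1), a serotonin receptor, had 1, 4 and 3 reads in starved mutants, against 12, 14 and 10 in starved wild types and 8, 7 and 8 in nutrient-rich mutants. The starved mutants were the lowest 3 of the 9 libraries, with log2 fold changes of -2.35 (SE 0.46, edgeR adjusted p = 0.0164) and -1.84 (0.47, edgeR adjusted p = 0.02), each resting on few reads. A neuropeptides capa receptor-like gene (Dapma7bEVm011031t1), whose Drosophila relative receives the capa peptides that act on the renal tubules, had 15.9, 13.7 and 15.1 CPM in starved mutants, against 24.4 to 26.4 CPM in starved wild types, and 28.2, 20.1 and 30.4 CPM in nutrient-rich mutants. Its log2 fold changes were -0.76 (0.17, edgeR adjusted p = 0.0303) and -0.82 (0.17, edgeR adjusted p = 0.00831), again with the starved mutants below all 6 other libraries. Metabotropic glutamate receptor 5 (Dapma7bEVm002156t1) had 28.8, 33.4 and 30.7 CPM in starved mutants, against 48.0, 40.2 and 52.6 CPM in starved wild types (-0.60, SE 0.15, edgeR adjusted p = 0.0425). It was also below all 3 nutrient-rich libraries (49.9, 40.8 and 47.6 CPM), where its log2 fold change of -0.57 stayed under the required size, though it was called without nutrient-rich mutant replicate 2 (-0.66, edgeR adjusted p = 0.00451).

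**Figure D2:**
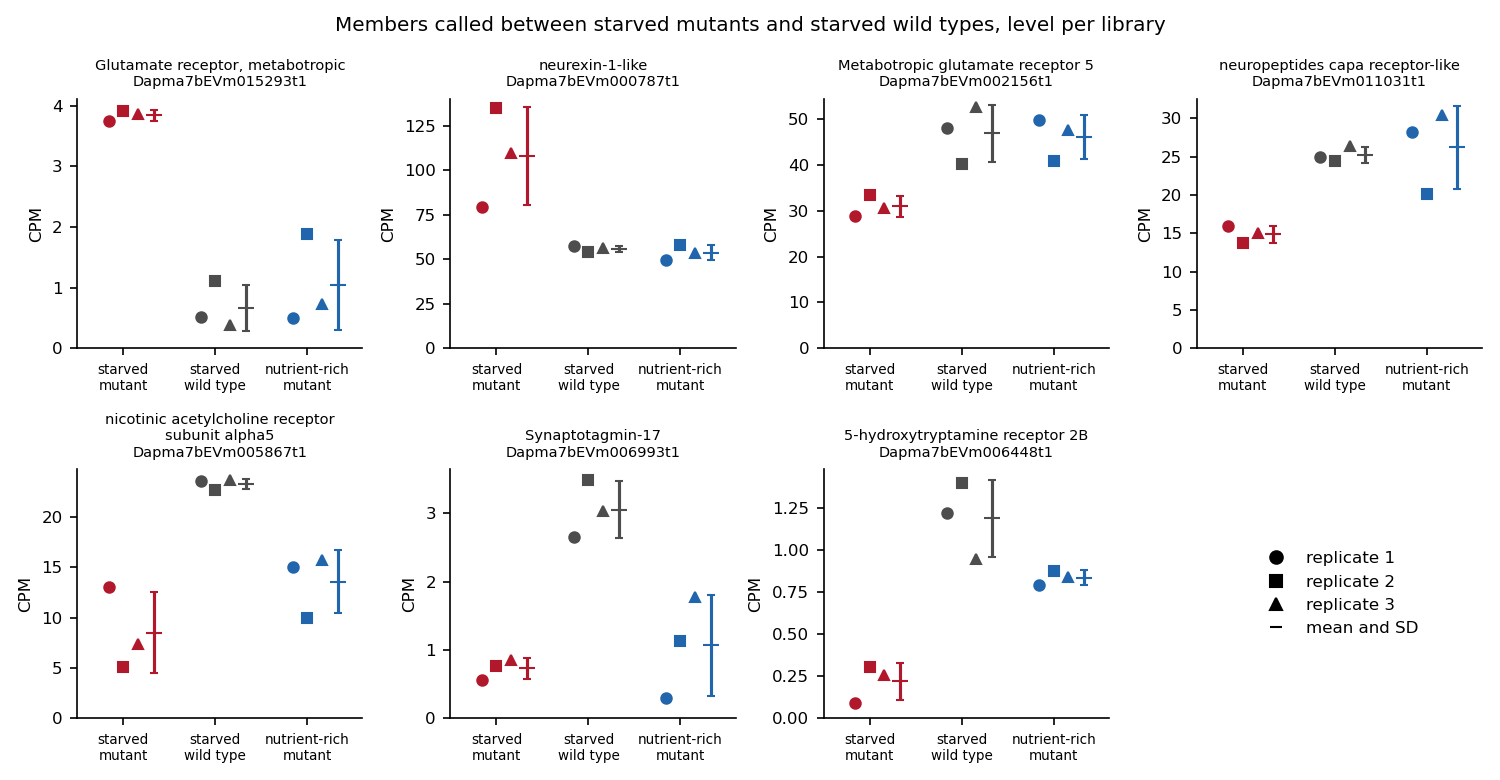
Level in CPM of the 7 members called between starved mutants and starved wild types, by group; symbols are replicates and bars the mean and SD (n = 3). In each panel the starved mutants lie wholly above or wholly below the starved wild types, and for the nicotinic subunit alpha5 and Synaptotagmin-17 the nutrient-rich mutants overlap the starved mutants.

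These calls were sensitive to single libraries. Without starved mutant replicate 2, starved mutant replicate 3 or starved wild type replicate 1 none of the members was called by edgeR (9, 11 and 12 had an unadjusted p under 0.05), and without starved wild type replicate 2 or 3 a single member was. Calls of all tested genes fell as well, from 7.25% to 3.48%, 2.77%, 3.08%, 3.14% and 4.02% in these fits, in the same order. Without nutrient-rich mutant replicate 2, which belongs to neither group but enters the shared filter, scaling and estimate of spread, 13 of 145 members were called, 5 higher and 8 lower, among them all 7 above, while 13.9% of all tested genes were. In deposited RPKM 3 of the 6 called members with RPKM values passed (neurexin-1-like, Synaptotagmin-17 and 5-hydroxytryptamine receptor 2B), while 5.64% of all genes tested on that scale were called, and all 6 kept their sign.

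The most abundant member, the acetylcholine receptor subunit alpha-like 1, was among those that passed when nutrient-rich mutant replicate 2 was left out. It had 527, 472 and 521 CPM in starved mutants, against 808, 769 and 802 CPM in starved wild types, and 406, 174 and 532 CPM in nutrient-rich mutants. All 3 starved mutants lay below all 3 starved wild types (log2 fold change -0.65, SE 0.33, edgeR adjusted p = 0.328), and the value was -0.64 (0.11, edgeR adjusted p = 0.00643) without that library. This gene made up 18.8% to 20.9% of the summed level of all members in starved mutants and 27.2% to 28.5% in starved wild types. The summed level was 2490 to 2530 CPM in starved mutants against 2830 to 2850 CPM in starved wild types, and 1970 to 2030 CPM against 2030 to 2060 CPM with the gene left out. The other members that passed without that library, chosen here after their values were seen, were dopamine N-acetyltransferase (Dapma7bEVm004405t1), synaptotagmin-10 and a 5-hydroxytryptamine receptor (Dapma7bEVm015377t1), all higher in starved mutants, and a kainate receptor (Dapma7bEVm006463t1) and a CCHamide-1 receptor-like gene (Dapma7bEVm015514t1), both lower. Dopamine N-acetyltransferase was also called by DESeq2 and with library totals when that library was kept.

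None of the 34 tested potassium channels and none of the 7 GABA receptor genes was called by edgeR or DESeq2 between the starved groups. Of these, 1 potassium channel and 0 GABA receptor genes had an unadjusted edgeR p under 0.05. The potassium channels ranged around a median log2 fold change of -0.15, and the GABA receptor genes, led by the type B subunit 1 (Dapma7bEVm004554t1) at 21.9, 19.5 and 22.6 CPM in starved mutants against 22.3, 24.7 and 24.2 CPM in starved wild types, around 0.09. Among the 19 tested glutamate receptors, 16 had a negative and 3 a positive log2 fold change, around a median of -0.23, which was -0.12 with library totals, where that of all genes was 0.10.

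To ask what starvation changed within the mutant line, the same starved mutant libraries were compared with those of nutrient-rich mutants. Here 20 members were higher and 7 lower in starved mutants (19.0% of 142), against 23.3% of all tested genes (11.2% higher and 12.2% lower). In this fit the share called was below that of all genes, while in some of the settings given below it was above. More of the members' values lay on the higher side. Their median log2 fold change was 0.26 (quartiles -0.08 and 0.81), with 69.0% above 0, against -0.07 and 45.7% over all tested genes. The starved mutants lay wholly above the nutrient-rich libraries for 41 members and wholly below for 12, where 20.1% of all tested genes lay above and 40.7% did not overlap. An unadjusted p under 0.05 was reached by 45 of the 142 members, against 37.5% of all tested genes. With DESeq2 24 were called higher and 7 lower (21.8%, against 25.8% of all tested genes). Scaling by library totals in place of TMM moved the median of all genes to 0.30 and that of the members to 0.62. The distance between members and all genes was thus 0.32 there and 0.33 with TMM. The split moved to 35 higher and 4 lower (27.5%, against 24.7% of all tested genes). Without nutrient-rich mutant replicate 2, 33 members were higher and 14 lower (32.4% of 145, against 28.6% of all tested genes), the median was 0.24 against 0.01, and 24 of the 27 calls were kept. Without starved mutant replicate 1, 2 or 3 there were 16, 15 and 16 calls (10.3% to 11.1% of the members tested), where 19.5%, 16.7% and 15.4% of all tested genes were called.

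**Figure D3:**
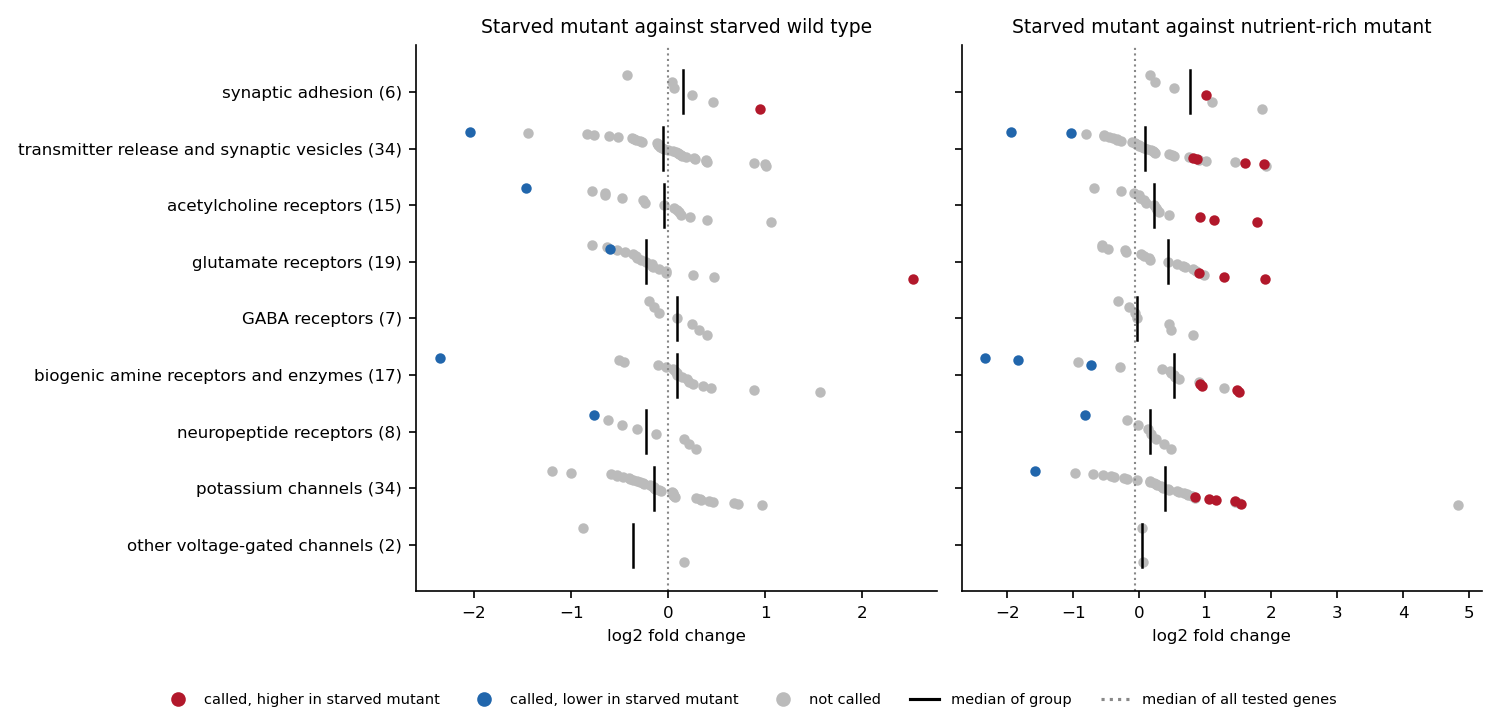
Log2 fold change of each tested member (points) by role, with the number tested in parentheses, in both comparisons, red where called higher and blue where called lower in starved mutants; black bars are medians of the role and the dotted line the median of all tested genes. On the right most roles lie to the right of the dotted line, whereas the GABA receptors (median -0.03) and the 2 hydrogen channels (0.05) lie near it.

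Among the adhesion proteins all 6 tested members had positive log2 fold changes over nutrient-rich mutants, with a median of 0.77, and 5 did not overlap. The neurexin-1-like gene described above was the only call, and 4 were higher without nutrient-rich mutant replicate 2, among them 3 of the 4 tested neuroligins, the postsynaptic partners of neurexins. The Y-linked ones named here were chosen after their values were seen. Neuroligin-4, X-linked-like (Dapma7bEVm010704t1) had 27.9, 24.6 and 23.8 CPM in starved mutants, against 13.7, 38.8 and 12.5 CPM in nutrient-rich mutants, and 16.2, 18.8 and 20.5 CPM in starved wild types. The highest and the lowest of the 9 libraries were thus both nutrient-rich, and the log2 fold change of 0.24 (edgeR adjusted p = 0.699) became 0.95 (SE 0.14, edgeR adjusted p = 0.00115) without replicate 2. Neuroligin-4, Y-linked (Dapma7bEVm005425t1), with 173, 234 and 187 reads in starved mutants against 107, 124 and 83 reads in nutrient-rich mutants, passed without it (0.79, edgeR adjusted p = 0.00305) and, with all libraries, in deposited RPKM (0.91, limma adjusted p = 0.0152). So did a further neuroligin-4, Y-linked gene (Dapma7bEVm011789t1), which had 12 to 28 reads in starved mutants and 2 to 6 in nutrient-rich mutants (2.37, edgeR adjusted p = 0.0323, and 1.32 in RPKM, limma adjusted p = 0.03). The remaining one, neuroligin-4, Y-linked-like (Dapma7bEVm005281t1), was not called with that library (1.11, edgeR adjusted p = 0.191) or without it (0.64, edgeR adjusted p = 0.189).

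**Figure D4:**
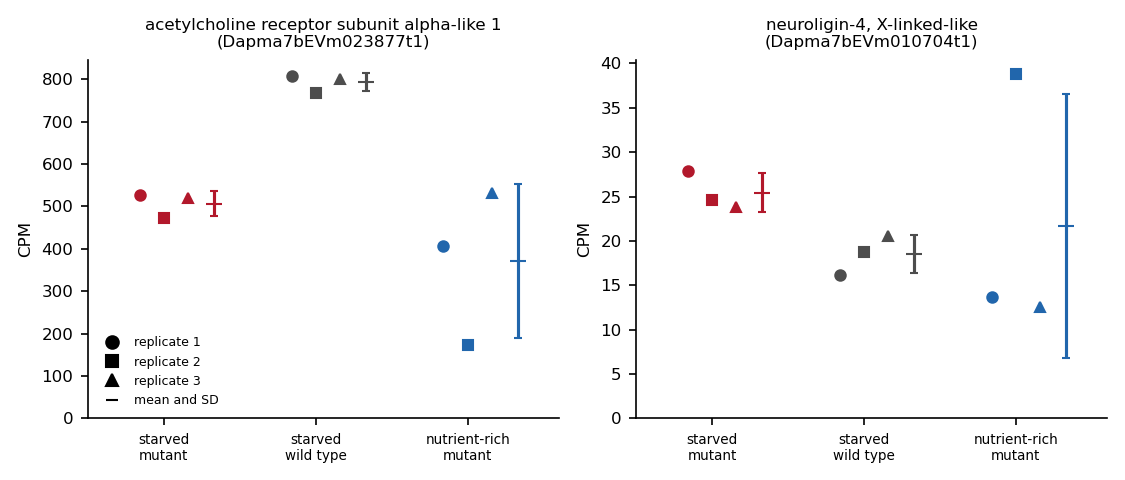
Level in CPM of acetylcholine receptor subunit alpha-like 1 and of neuroligin-4, X-linked-like by group; symbols are replicates and bars the mean and SD (n = 3). Nutrient-rich mutant replicate 2 (square) is the lowest of the 9 libraries for the receptor, at 174 CPM, and the highest for the neuroligin, at 38.8 CPM.

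The role of transmitter release and synaptic vesicles held every further name with synapt, also of proteins outside the release machinery such as FMR1. Of its 34 tested members 4 rose and 2 fell (17.6%, against 23.3% of all tested genes). Without nutrient-rich mutant replicate 2, 5 were higher and 2 lower, where 28.6% of all tested genes were called. The members named here and for the other roles as gained without that library were chosen after their values were seen. In this role they were, on the higher side, a synaptotagmin-4-like gene (Dapma7bEVm003735t1, 0.68), a regulating synaptic membrane exocytosis protein 2-like gene (Dapma7bEVm000439t1, 0.66) and a syg-2-like gene (Dapma7bEVm009715t1, 0.90), and on the lower side extended synaptotagmin-2 (Dapma7bEVm000109t1, -0.69). Synaptotagmin 1 (Dapma7bEVm007611t1), the calcium sensor of fast release, had 59.7, 67.6 and 58.3 CPM in starved mutants, against 46.3, 23.0 and 36.6 CPM in nutrient-rich mutants (log2 fold change 0.81, SE 0.22, edgeR adjusted p = 0.0277), and was not called without nutrient-rich mutant replicate 2. Synaptotagmin-10 (Dapma7bEVm006264t1) differed more, with 14.9, 23.0 and 22.5 CPM in starved mutants, against 6.34, 1.38 and 8.29 CPM in nutrient-rich mutants (1.90, SE 0.48, edgeR adjusted p = 0.0187). Synaptotagmin-4 (Dapma7bEVm001875t1), by 0.87, and a VAT-1 homolog-like gene (Dapma7bEVm029061t1), by 1.60, rose as well. Their calls were kept in 7 and 6 of 16 alternative settings of the analysis. The VAT-1 homolog lay close to the threshold (edgeR adjusted p = 0.0495) and did not pass without replicate 2. In each of these 4 genes that library was the lowest of all 9. On the lower side stood synaptic vesicle glycoprotein 2B (Dapma7bEVm001496t1), a transporter-like protein of the vesicle membrane, with 24.9, 25.9 and 25.9 CPM in starved mutants, against 58.2, 42.0 and 56.8 CPM in nutrient-rich mutants (-1.03, SE 0.15, edgeR adjusted p = 0.00147). A 2B-like relative (Dapma7bEVm009307t1) fell by 1.94 on the log2 scale (edgeR adjusted p = 0.0435), with 3 to 13 reads in starved mutants against 18 to 31 in nutrient-rich mutants, a call that was lost without replicate 2. The most abundant members of this role were not called: FMR1 had a log2 fold change of -0.27 and Synaptosomal-associated protein 29 one of -0.33, and synaptosomal-associated protein 25, chosen after its values were seen, one of 0.00.

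Among the ligand-gated receptors the 5 members called in the fit of all libraries were higher in starved mutants. The kainate 2 receptor (Dapma7bEVm000475t1), an ionotropic glutamate receptor, had 80.6, 70.0 and 69.7 CPM in starved mutants, against 28.8, 30.6 and 30.9 CPM in nutrient-rich mutants. The groups lay far apart relative to their spread (log2 fold change 1.29, SE 0.12, edgeR adjusted p = 0.000188). Starved wild types had 85.9, 84.5 and 76.9 CPM, and between the starved groups it was not called (-0.17, edgeR adjusted p = 0.512). A kainate 2-like gene (Dapma7bEVm010849t1) rose by 0.90 at 1.36 to 3.45 CPM. Its call was kept in only 4 of 16 alternative settings of the analysis and was lost with DESeq2. Of the nicotinic receptors, the subunit beta-like 2 (Dapma7bEVm002739t1) had 32, 40 and 36 reads in starved mutants, against 8, 8 and 8 reads in nutrient-rich mutants (1.79, SE 0.27, edgeR adjusted p = 0.0017). Its ratio of reads to RPKM varied over the libraries with a coefficient of variation of 51.0%. Without nutrient-rich mutant replicate 2 another kainate 2 gene (Dapma7bEVm006463t1) was called lower (-0.71, edgeR adjusted p = 0.0152). The subunits alpha 16 (Dapma7bEVm023697t1) and alpha-7-like (Dapma7bEVm006493t1) rose by 0.93 and 1.13, each with a call kept in 6 of 16 alternative settings. The abundant subunit alpha-like 1 was not called (0.45, edgeR adjusted p = 0.357), and nutrient-rich mutants spread from 174 to 532 CPM, overlapping the starved mutants. None of the 7 GABA receptor genes was called by edgeR or DESeq2, and 1 had an unadjusted edgeR p under 0.05. Their median of -0.03 became 0.28 with library totals, near the 0.30 of all genes there. Without nutrient-rich mutant replicate 2 the acetylcholine receptors had 4 higher and 0 lower calls of 15, with the muscarinic receptor DM1 (Dapma7bEVm006663t1, 0.99) added. The glutamate receptors then had 5 higher and 2 lower of 21, against 3 higher and 0 lower of 19 with it, where the other additions were a metabotropic glutamate receptor (Dapma7bEVm000461t1, 0.75), a metabotropic 3-like one (Dapma7bEVm004008t1, 0.77) and the lower Metabotropic glutamate receptor 5. Under the name of the GABA receptors 1 of 8 was then higher, the receptor-associated protein (Dapma7bEVm011401t1, edgeR adjusted p = 0.0217), which acts in autophagy and had too few reads to be tested in the fit of all libraries.

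The biogenic amine group moved in both directions, with 4 members higher and 3 lower of 17 tested (41.2%, against 23.3% of all tested genes). The 4 that rose were G protein-coupled receptors: the dopamine D2-like receptor (Dapma7bEVm003215t1), a 5-hydroxytryptamine receptor 6-like gene (Dapma7bEVm005874t1) and the octopamine receptors beta-3R (Dapma7bEVm007041t1) and beta-2R (Dapma7bEVm006757t1). The D2-like receptor had 6.36, 7.37 and 6.11 CPM in starved mutants, against 3.37, 3.64 and 3.25 CPM in nutrient-rich mutants (log2 fold change 0.95, SE 0.22, edgeR adjusted p = 0.012). Octopamine receptor beta-3R had 2.90, 4.07 and 2.93 CPM in starved mutants, against 0.792, 0.627 and 1.99 CPM in nutrient-rich mutants (1.52, SE 0.44, edgeR adjusted p = 0.0332). The 6-like and beta-2R genes rose by 0.93 and 1.48. Of the 3 that fell, 2 had names of enzymes that modify amines, or of relatives of these. A dopamine N-acetyltransferase-like gene (Dapma7bEVm005723t1), of a family that in insects acetylates dopamine for inactivation and for hardening of the cuticle, had 4.30, 4.37 and 4.05 CPM in starved mutants, against 24.4, 19.1 and 20.7 CPM in nutrient-rich mutants. This difference (log2 fold change -2.33, SE 0.20) had the lowest edgeR adjusted p of the members, 0.000141. Starved wild types, at 6.82, 4.48 and 6.16 CPM, lay near the starved mutants. An N-acetylserotonin O-methyltransferase-like gene (Dapma7bEVm008573t1), named for the last step of melatonin synthesis, fell by 0.73 (edgeR adjusted p = 0.00921), and the remaining one was 5-hydroxytryptamine receptor 2B. The N-acetyltransferase-like gene of highest level (Dapma7bEVm008199t1, 12.0 RPKM) had a log2 fold change of 0.55 and was not called (edgeR adjusted p = 0.176), so values of this enzyme family lay on both sides of 0. The group had 6 higher and 4 lower calls without nutrient-rich mutant replicate 2. Those added were dopamine N-acetyltransferase (Dapma7bEVm004405t1, 1.98) and a 5-hydroxytryptamine receptor (Dapma7bEVm015377t1, 1.25), both higher, and a lower N-acetyltransferase-like gene (Dapma7bEVm007487t1, -1.25).

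Of the 8 tested neuropeptide receptors only the capa receptor-like gene was called in the fit of all libraries. Without nutrient-rich mutant replicate 2 there were 2 higher and 2 lower, with a CCHamide-2 receptor-like gene (Dapma7bEVm029198t1, 1.26) and a neuropeptide F receptor-like gene (Dapma7bEVm004208t1, 0.87) higher and neuropeptide FF receptor 2 (Dapma7bEVm007058t1, -0.60) lower. The next most abundant, a CCHamide-1 receptor-like gene (Dapma7bEVm015514t1), had 10.4, 7.98 and 8.69 CPM in starved mutants, against 8.72, 3.89 and 6.72 CPM in nutrient-rich mutants and 15.1, 14.9 and 11.7 CPM in starved wild types. It overlapped the nutrient-rich group and lay below the starved wild types, without a call in either comparison (edgeR adjusted p = 0.258 and 0.254). The rule found no gene named as a neuropeptide precursor, so the peptides themselves are not covered.

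Among 34 tested potassium channels, 5 rose and 1 fell (17.6%, against 23.3% of all tested genes), around a median of 0.40. Leaving out nutrient-rich mutant replicate 2 gave 6 higher and 4 lower, where 28.6% of all tested genes were called. The calls were then less one-sided. A Shaw-like channel (Dapma7bEVm011132t1, 0.64) was added on the higher side. On the lower side were added the subunit beta-2 (Dapma7bEVm006219t1, -0.80), another sup-9 gene (Dapma7bEVm015452t1, -0.68) and another inward rectifier (Dapma7bEVm007803t1, -1.05). The small conductance calcium-activated channel (Dapma7bEVm000280t1), which follows a spike with a slow outward current, had 40.8, 33.9 and 33.7 CPM in starved mutants, against 22.2, 17.6 and 20.3 CPM in nutrient-rich mutants (log2 fold change 0.85, SE 0.16, edgeR adjusted p = 0.00554). The voltage-gated subfamily H members 2 (Dapma7bEVm030437t1) and 6-like (Dapma7bEVm023102t1), relatives of the Drosophila erg channel seizure, rose by 1.55 and 1.45 (edgeR adjusted p = 0.00249 and 0.00681). The first had 9.82, 9.06 and 9.12 CPM in starved mutants, against 3.07, 3.89 and 2.62 CPM in nutrient-rich mutants. For the 6-like gene the ratio of reads to RPKM varied over the libraries with a coefficient of variation of 97.3%. These 3 channels carry the same sc number, 642, in their feature IDs, as do 3 further potassium channel members, and whether their gene models share reads was not tested. A subfamily K member 18-like channel (Dapma7bEVm011313t1) and a G protein-activated inward rectifier (Dapma7bEVm028196t1) rose by 1.06 and 1.16. The channel that fell was a 2-pore leak channel named sup-9 (Dapma7bEVm023186t1), with 7.76, 8.83 and 10.4 CPM in starved mutants, against 35.2, 18.9 and 26.9 CPM in nutrient-rich mutants (-1.58, SE 0.24, edgeR adjusted p = 0.0016). Starved wild types, at 10.9, 9.27 and 9.67 CPM, overlapped the starved mutants. The most abundant potassium channel, an inward rectifier 2-like gene (Dapma7bEVm009828t1, 18.4 RPKM), had a log2 fold change of 0.16 and overlapped between the groups. A TWiK family member (Dapma7bEVm027930t1), chosen after its values were seen, had the largest fitted value, 4.84, without a call: its reads were 36, 1 and 9 in starved mutants against 0, 1 and 0 in nutrient-rich mutants. The last 2 members were voltage-gated hydrogen channels (Dapma7bEVm006592t1 and Dapma7bEVm028086t1), which let protons leave the cell. Neither was called by edgeR or DESeq2 in either comparison, and 0 of them had an unadjusted edgeR p under 0.05.

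**Figure D5:**
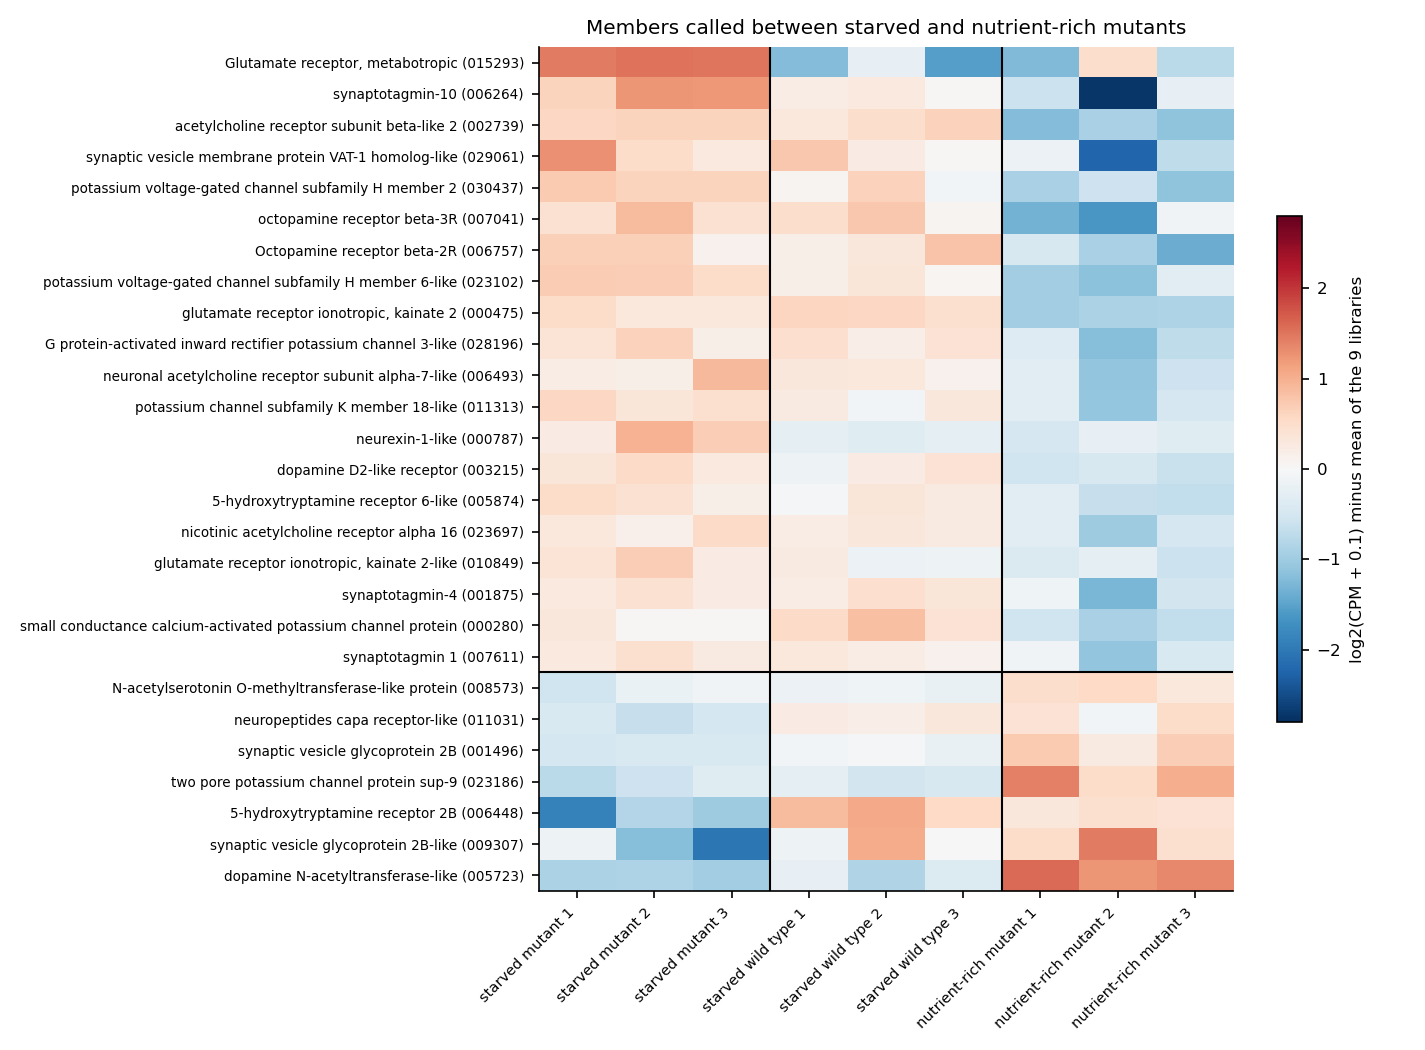
Level of the 27 members called between starved and nutrient-rich mutants in each of the 9 libraries, as log2(CPM + 0.1) minus the gene's mean over libraries; red is above and blue below that mean, and members are ordered by fold change (number after the name: digits of the gene ID). The 20 members above the line are higher in starved mutants and the 7 under it lower.

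Both comparisons rest on the same starved mutant libraries, so their calls are not independent. Set side by side, 2 members were higher in starved mutants in both (neurexin-1-like and Glutamate receptor, metabotropic), where 2.4% of all tested genes were, and 2 were lower in both (5-hydroxytryptamine receptor 2B and the capa receptor-like gene), where 3.23% of all tested genes were. A further 18 were higher and 5 lower only in the calls over nutrient-rich mutants, 3 were lower only in the calls over starved wild types, and 112 of the 142 were not called in either. In deposited RPKM 22 of the 26 called members with RPKM values passed over nutrient-rich mutants, 19 higher and 3 lower, while 24.2% of all genes tested on that scale were called, and all 26 kept their sign. The 4 that did not pass were lower in starved mutants by count. RPKM were not scaled by TMM, and on that scale the median log2 fold change of all genes was 0.38. Of all genes 3372 were called higher and 914 lower there, so the scale itself favours higher calls.

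Genes that make, clear or act beside the transmitters were taken from lists by name. Of 14 tested genes of transmitter synthesis and breakdown, 5 were higher and 0 lower in starved than in nutrient-rich mutants. This is 35.7%, against 23.3% of all tested genes. DESeq2 also called 5, and the median log2 fold change was 0.62. Tyrosine 3-monooxygenase (Dapma7bEVm009554t1), which makes the precursor of dopamine, averaged 58.0 CPM in starved mutants, 6.71 CPM in nutrient-rich mutants and 38.6 CPM in starved wild types, and was higher by 3.1 on the log2 scale in starved than in nutrient-rich mutants (SE 0.26, edgeR adjusted p = 0.000127). A glutamine synthetase-like gene (Dapma7bEVm011097t1) averaged 103 CPM in starved mutants and 30.2 CPM in nutrient-rich mutants (1.77, edgeR adjusted p = 0.00116). Glutamate decarboxylase (Dapma7bEVm002297t1), which makes GABA, rose by 0.84 and an acetylcholinesterase (Dapma7bEVm006728t1), which clears acetylcholine, by 0.95. Between the starved groups none of the 14 was called by edgeR or DESeq2 and 1 had an unadjusted edgeR p under 0.05. Of 19 transmitter transporters 2 rose and 2 fell over nutrient-rich mutants (21.1%), and 1 rose over starved wild types (5.26%). That gene, an ine-like transporter (Dapma7bEVm003547t1), averaged 71.7 CPM in starved mutants, 40.0 CPM in starved wild types and 36.4 CPM in nutrient-rich mutants (0.84 and 0.98, edgeR adjusted p = 0.0196 and 0.00356). A GABA transporter 1-like gene (Dapma7bEVm000671t1) rose by 2.11 over nutrient-rich mutants and the dopamine transporter (Dapma7bEVm005504t1) fell by 1.07. Of 71 other ion channels 11 rose and 8 fell over nutrient-rich mutants, and 2 rose and 4 fell over starved wild types. These shares of 26.8% and 8.45% lay near the 23.3% and 7.25% of all tested genes. An epithelial chloride channel protein-like gene (Dapma7bEVm001697t1) averaged 4.46 CPM in starved mutants, 27.6 CPM in starved wild types and 57.3 CPM in nutrient-rich mutants, and was lower in both comparisons (-2.64 and -3.69, edgeR adjusted p = 0.0157 and 0.00129).

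Markers of other tissues that a whole body holds were counted beside the members. Of 13 tested neuron markers, 1 was higher and 1 lower in starved than in nutrient-rich mutants, around a median of 0.12, and their summed level was 698 to 719 CPM in starved mutants, 568 to 827 CPM in nutrient-rich mutants and 709 to 783 CPM in starved wild types. ELAV-like protein 3 (Dapma7bEVm000037t1), an RNA-binding protein of neurons, averaged 21.0 CPM in starved mutants and 11.4 CPM in nutrient-rich mutants (0.88, edgeR adjusted p = 0.00311), whereas Neuronal calcium sensor 2 (Dapma7bEVm029268t1) averaged 1.43 CPM in starved mutants and 3.83 CPM in nutrient-rich mutants (-1.41, edgeR adjusted p = 0.0054). Complexin had no read in any library. Of 40 tested eye markers (opsins, arrestins and related genes), 23 were higher and 0 lower by edgeR, around a median of 1.13, and DESeq2 called 24. Their sum was 2490 to 2720 CPM in starved mutants against 710 to 1290 CPM (median 1260) in nutrient-rich mutants, with 4 genes at 0 in all libraries. Of 20 tested muscle markers 7 were higher and 0 lower (10 called by DESeq2), with a sum of 13200 to 14000 CPM in starved mutants against 8040 to 11400 CPM in nutrient-rich mutants and 3 genes at 0. Between the starved groups no gene of these 3 marker lists was called by edgeR or DESeq2, with 1 neuron, 0 muscle and 1 eye marker at an unadjusted edgeR p under 0.05. The part of these tissues in the members' values was not tested.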

How the data were processed

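RNA of 9 whole-body libraries, 3 per group, was analysed. The authors mapped reads to the D. magna genome of wFleaBase with CLC Genomics Workbench 12 and deposited counts (total gene reads per feature) and RPKM for 47109 features. The deposited RPKM served for levels between genes and as a second measure. Their own tables of fold changes and FDR p-values were not used. Members and lists were chosen with earlier results of these data known. Where a gene ID had several features, that with the highest mean count stands for it.

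Counts were filtered (filterByExpr), scaled by TMM and tested with the quasi-likelihood F-test of edgeR 4.0.16 in R 4.3.3, with all 3 groups in 1 fit, and p-values were adjusted (Benjamini-Hochberg) over 18675 features. Calls required an adjusted p under 0.05 together with a change of 1.5-fold or more. The named genes are the called members, the 2 members of highest mean RPKM per role and up to 4 called genes per other list by p-value; others are said to be chosen later. Alternatives were DESeq2 1.42.0, RLE factors, library totals, no filter, 6 libraries, a replicate block, each library left out and, chosen after the data were seen, limma 3.58.1 on log2(RPKM + 0.1). The scripts were tested on simulated data.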

Additional observations from a re-analysis of the deposited data

How the results depend on the processing

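Over starved wild types 7 members were called (2 higher, 5 lower). Library totals gave 4 calls (1 lower), deposited RPKM 3 (1 higher, 2 lower), and a fit of only the 6 libraries of the compared groups 12 (5 higher), or 8.7% of the members against 14.3% of all genes. Over nutrient-rich mutants 27 were called (20 higher, 7 lower). Library totals gave 35 higher and 4 lower (27.5% against 24.7% of all genes), and RPKM 33 higher and 3 lower (25.5% against 24.2%). A fit of 6 libraries gave 14 calls (8 higher), or 10.4% against 17.3% of all genes. Library totals moved the split of all genes over nutrient-rich mutants to 3295 higher and 1094 lower (main: 1980 and 2163), and over starved wild types to 603 and 564 (528 and 759). Leaving out each library gave 0 to 13 calls over starved wild types (0 to 5 higher, 0 to 8 lower) and 15 to 47 over nutrient-rich mutants (8 to 33 higher, 5 to 14 lower). The share of all tested genes called varied too, from 2.77% to 13.9% and from 15.4% to 28.6%. The cause was not tested. Across all alternatives 8 of the 27 calls over nutrient-rich mutants and 0 of the 7 over starved wild types held throughout. Those 8 were neurexin-1-like, the nicotinic subunit beta-like 2, kainate 2 (Dapma7bEVm000475t1), dopamine N-acetyltransferase-like (Dapma7bEVm005723t1), the small conductance channel, sup-9 and the subfamily H members 2 and 6-like. No called gene reversed its sign. Of the recomputed values that were given a label, role counts and medians included, 2834 were labelled the same, 200 weaker, 22 stronger and 139 moved. The label of the same allowed for a tolerance, so such a value need not equal the reported one. A fit with the replicate number as a block gave 5 calls over starved wild types (2 higher, 3 lower) and 21 over nutrient-rich mutants. These were 3.52% and 14.8% of the members, against 5.68% and 20.7% of all tested genes. Deviations of same-numbered libraries from their group means correlated at -0.104 to 0.177, and those of libraries with unlike numbers at -0.18 to 0.15. The ranges overlap, so they do not show that the numbers pair the samples and cannot exclude it. Low counts limit what can be shown, since the median tested member had a mean of 51.7 reads.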
